A study of Caenorhabditis elegans with 2 samples.

Results

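The X-linked UNC-62 regions were the 487 regions on chromosome X among the 2155 regions that the authors called on both replicates pooled. They were chosen by chromosome alone, and each was placed by its summit, the base of highest enrichment. The other 1649 nuclear regions lay on the 5 autosomes and served as the comparison, and 19 lay on mitochondrial DNA. UNC-62 was profiled by ChIP-seq, which recovers fragments of chromatin with an antibody and sequences their DNA, in 2 biological replicates of whole Caenorhabditis elegans that form 1 group. Both were of strain OP600, which carries the mutation unc119(ed3) and the transgene wgIs600, made of unc-62::TY1 EGFP FLAG and an unc119 copy. The line stably expresses UNC-62 with GFP and FLAG fused at its C terminus, and the antibody is labelled unc-62. The animals were of both sexes, pooled, and of unknown age. One label gives the stage as dauer, the arrested larva, and another says D4 worms. No untagged strain or second stage was analysed here, so nothing below compares conditions.

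UNC-62 is a homeodomain protein of the Meis class that acts with Hox and Pbx-type partners to set the activity of developmental and adult genes. The X chromosome of the worm is present in a double dose in hermaphrodites and a single dose in males, and in hermaphrodites a condensin-based dosage compensation complex lowers its expression. That complex is first recruited at sites on X that carry a motif enriched on X, and the 8 letters GCGCAGGG are the centre of that motif. The complex itself was not measured here. The lists include background by design, so a listed region need not be bound, and a region does not show direct contact of the protein with its DNA.

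Of the 10 X regions strongest in the pool, 7 carried GCGCAGGG within 100 bp of the summit. The sequences that carry it in these 7 regions are shown first, followed by those in 5 of the 6 weaker regions that held it. The other weaker region overlaps an annotated UTR and its sequence is not printed. Each is 40 bases of build ce11, read 5′ to 3′ on the strand that spells the 8 letters, which are in capitals.
Promoter of nspc-17, chrX:14525884-14525923, minus strand: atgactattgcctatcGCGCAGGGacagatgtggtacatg
Intron of Y41G9A.17, chrX:2997107-2997146, minus strand: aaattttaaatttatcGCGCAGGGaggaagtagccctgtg
Intergenic near W02H3.3, chrX:11094109-11094148, minus strand: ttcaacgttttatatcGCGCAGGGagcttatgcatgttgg
Same region, chrX:11094210-11094249, minus strand: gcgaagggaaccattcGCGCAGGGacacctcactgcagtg
Intergenic near C18A11.13, chrX:8036385-8036424, minus strand: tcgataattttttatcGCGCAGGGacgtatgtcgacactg
Same region, chrX:8036419-8036458, plus strand: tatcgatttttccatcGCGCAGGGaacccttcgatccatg
Coding exon of pks-1, chrX:5429574-5429613, plus strand: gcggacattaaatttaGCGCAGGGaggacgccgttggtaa
Intergenic near F20B6.9, chrX:4209250-4209289, minus strand: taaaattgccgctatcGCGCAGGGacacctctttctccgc
Intron of mom-1, chrX:6296532-6296571, plus strand: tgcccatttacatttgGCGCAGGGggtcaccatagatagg
Same region, chrX:6296560-6296599, plus strand: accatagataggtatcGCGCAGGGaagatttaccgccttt
Weaker region near F22H10.2, chrX:16682156-16682195, minus strand: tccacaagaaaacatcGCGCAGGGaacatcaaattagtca
Weaker region near gtr-1, chrX:806658-806697, plus strand: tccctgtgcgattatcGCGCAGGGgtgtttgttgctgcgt
Weaker region near T24D8.6, chrX:2364883-2364922, minus strand: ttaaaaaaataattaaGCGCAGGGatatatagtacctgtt
Weaker region in the Y41G9A.17 intron, chrX:2997282-2997321, minus strand: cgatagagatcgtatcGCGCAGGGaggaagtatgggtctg
Weaker region at the promoter of ins-39, chrX:1345040-1345079, plus strand: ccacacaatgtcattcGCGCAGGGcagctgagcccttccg

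GCGCAGGG lay near the summit of 13 of 487 X regions, or 2.67% (exact 95% interval 1.43 to 4.52%). It lay near 2 of 1649 autosomal summits, or 0.121% (0.0147 to 0.437%), and near 0.702% of all nuclear summits. The difference of 2.55 percentage points passed a two-sided Fisher's exact test over regions, with a Benjamini-Hochberg adjusted p of 4.45e-06 over the 17 comparisons of X with the autosomes made here. These p-values take regions, not animals, as the units, and neighbouring regions share fragments, as 2 overlapping regions of the 13 in the Y41G9A.17 intron do. Windows of 201 bp placed 1000 bp to either side of the X summits held the letters in 0.205% of 974 cases, and windows tiled along X held them in 0.0851%. The interval of the flanks, 0.0249 to 0.740%, did not reach that of the X summits.

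Among the X regions the letters were concentrated at the top of the pooled signal, which is the authors' enrichment value per region on a scale that is not stated. They were found in 7 of the 10 X regions of highest signal, in none of the 14 ranked 11 to 24 (interval up to 23.2%), in 1 of the 24 ranked 25 to 48, in 4 of 195 ranked 49 to 243 and in 1 of the 244 below. The 13 regions had a median pooled signal of 44.1, between 17.1 and 62.2, against a median of 17.7 for the 474 without the letters. Of these 13, 7 were in the authors' reproducible list, the list of regions that passed the irreproducible discovery rate threshold. The share was 3.59% of the 474 and 3.56% of all nuclear regions. On X that list held exactly the 24 regions of highest pooled signal, so these 7 are the 7 of the top 10 again. The 2 autosomal regions with the letters had a pooled signal of 26.7 and 16.8, and neither was reproducible. Left without the 10 strongest regions of X and the 10 strongest of the autosomes, a setting chosen after the data were seen, the shares were 1.26% and 0.122% (adjusted p = 0.0133, Fisher's exact test). Over all alternative settings for this comparison the adjusted p lay between 7.15e-08 and 0.0133.

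**Figure D1:**
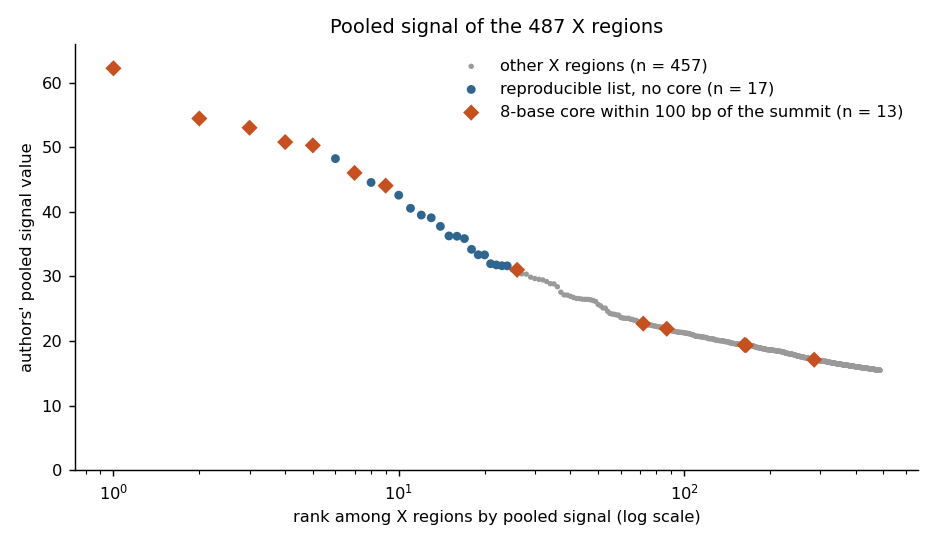
Authors' pooled signal value of each of the 487 X regions against its rank on X (log axis). Orange diamonds are the 13 regions with the 8-base core within 100 bp of the summit, blue points are the other 17 reproducible regions and grey points the remaining 457; diamonds take 7 of the first 10 ranks.

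The same letters were present in each replicate's own list, where signals were called separately. Of the 100 nuclear regions of highest signal, replicate 1 had 28 on X, 7 of them with GCGCAGGG, and replicate 2 had 32 on X, 8 of them with it. None of the 72 and 68 autosomal regions of those tiers held it. Among X regions also found in the pooled list, the strongest of replicate 1, chrX:13700677-13701020, lacked the letters. The strongest of replicate 2, at nspc-17, held them. In the full lists of about 30000 regions each the letters were rare, in 0.337% of X regions and 0.0749% of autosomal regions for replicate 1 and in 0.287% and 0.0540% for replicate 2. Of the X regions with the letters, 11 of 20 in replicate 1 and 13 of 17 in replicate 2 ranked within the top 2000 of their list, and the others lay below. Of all X regions, 433 of 5938 in replicate 1 and 432 of 5916 in replicate 2 did.

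The bases around the core differed between occurrences inside and outside the regions. X held 81 occurrences of GCGCAGGG, or 4.57 per Mb, against 233 on the autosomes, or 2.82 per Mb. Of the 81, 16 lay within 100 bp of a pooled summit, or 19.8% (11.7 to 30.1%), and of the 233 only 2 did, or 0.858% (0.104 to 3.07%). Those 16 fell in 13 regions at a median of 34 bp from the summit, and at 81 bp at the farthest. Of the 16, 14 had T at the second base before the core, 13 had C just before it and 13 had A just after it, whereas among the 65 other X occurrences these bases were found 24, 20 and 21 times. Of the 13 X occurrences preceded by ATC, 10 lay in a pooled window and 7 in a reproducible one. The weaker regions near F22H10.2, near gtr-1 and in the Y41G9A.17 intron each held 1 of these 10 as well. When the core was also followed by A, 9 of 10 lay in a pooled window. Of the 68 X occurrences preceded by other letters, 6 did, and of the 2 autosomal occurrences preceded by ATC none did. The choice of ATC followed from looking at these sequences, so these counts are a description without a test.

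With 1 mismatch allowed, the core was near 9.24% of X summits and 4.49% of autosomal summits (adjusted p = 0.00145, Fisher's exact test), against 2.67% of X flanks and 2.76% of autosomal flanks. In this looser form 13 of the 24 reproducible X regions held it and 2 of the 52 autosomal ones did. Of the 10 strongest X regions, 9 held the exact or the 1-mismatch form, and the exception was the region at chrX:16929645-16929988.

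The strongest X region, chrX:14525734-14526077, had its summit 725 bp upstream of nspc-17, a gene of a nematode-specific peptide family. Its signal was 62.2 in the pool, 29.3 in replicate 1 and 29.96 in replicate 2, where it ranked 21, 31 and 6 in the respective lists. Such ranks count every region of a list, mitochondrial ones included. The best ranks of autosomal pooled regions were 18, 20 and 2 in the same order. For the replicates these cover only regions with a summit within 200 bp of a pooled one. The 2 replicate values of the nspc-17 region were close, on a scale that is not stated. The region in an intron of Y41G9A.17 followed with 54.5 in the pool, 26.4 in replicate 1 and 25.5 in replicate 2. An intergenic region at chrX:11093985-11094328, 4029 bp from the start of W02H3.3, had 53.0 in the pool, 26.8 in replicate 1 and 24.5 in replicate 2. These first 3 regions all held the core with ATC before it and A after it.

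The fourth region, chrX:8036186-8036529, lay near the start of the non-coding RNA gene C18A11.13, and the nearest protein-coding start was that of xol-1, the switch gene of sex determination, 4955 bp away. Its signal was 50.8 in the pool, 29.8 in replicate 1 and 24.98 in replicate 2. Its window held 2 copies of the core, on opposite strands. The region in a coding exon of pks-1, a polyketide synthase gene, had 50.3 in the pool, 17.3 in replicate 1 and 22.5 in replicate 2. The intergenic region 1792 bp from F20B6.9 had 46.03, 24.4 and 24.3 in the same order. The region in an intron of mom-1, which encodes the Porcupine homologue needed to secrete Wnt ligands, had 44.1, 17.9 and 16.7. All 7 core regions of the top 10 thus ranked within the first 105 of both replicate lists. The pool that set the top 10 is made of these replicates, so high ranks in both follow in part from the choice. The top 10 regions without the exact core ranked 77, 29 and 117 in replicate 1 and 8, 57 and 20 in replicate 2.

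Among the 10 strongest, 3 regions lacked the exact core. The intergenic region at chrX:9465708-9466051, 2535 bp from ZK899.6, had a signal of 48.2 in the pool, 19.4 in replicate 1 and 27.3 in replicate 2. The region at the non-coding RNA gene C30E1.9 had 44.6 in the pool, 29.96 in replicate 1 and 18.5 in replicate 2. At the promoter of puf-9, which encodes a Pumilio-family RNA-binding protein, the summit lay 404 bp upstream of the start and the signal was 42.6 in the pool, 16.8 in replicate 1 and 23.9 in replicate 2. Here the 2 replicate values lay further apart than at nspc-17, and in no common direction.

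The rest of the 24 reproducible X regions had pooled signals between 31.6 and 40.6. The intergenic region at chrX:13700677-13701020 was the strongest matched X region of replicate 1, at 32.5, but stood at 9.18 and rank 2433 in replicate 2. The intron of nhr-3, a nuclear hormone receptor gene, had 39.5 in the pool, 10.6 in replicate 1 and 14.01 in replicate 2. The snoRNA gene T27A8.8 had 39.1, 17.1 and 17.3. The 2 replicate values were thus far apart at some reproducible regions and close at others.

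Promoters among these regions were those of bet-2, a BET bromodomain gene, with 37.8 in the pool, of sms-2, a sphingomyelin synthase gene, with 36.3, of ftt-2, which encodes a 14-3-3 protein, with 34.2, and of zfp-3 with 31.6. The ftt-2 region had 9.19 in replicate 1 and 18.1 in replicate 2. The zfp-3 region had 20.5 and 9.54, so the higher value came from a different replicate at each. A region in an intron of F09A5.3 lay at the start of the microRNA genes cel-mir-54, cel-mir-55 and cel-mir-56, members of the mir-51 family, and had 33.3 in the pool, 13.3 in replicate 1 and 19.5 in replicate 2. Other regions lay in an intron of F49E2.5 at 32.0, at a pair of tRNA genes at 31.8, between genes near F19H6.5 at 36.2, F55G7.5 at 35.9 and R03E9.2 at 33.4, and at the non-coding RNA gene R106.8 at 31.7. The last reproducible X region, at zfp-3, had a pooled signal of 31.6, and the first X region outside the list, a tRNA and non-coding RNA locus 1047 bp from ets-5, had 31.1.

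The 487 X regions together had a median pooled signal of 17.9, from 15.5 to 62.2, and the autosomal regions a median of 17.6. A replicate region with its summit within 200 bp was found for 90.1% of X regions in replicate 1 and 89.5% in replicate 2, next to 88.2% and 88.1% of all nuclear pooled regions. The autosomal share was 87.6% in both, and neither difference passed the test (adjusted p = 0.283 and 0.378, Fisher's exact test). A match was found in both replicates for 388 X regions, in replicate 1 alone for 51, in replicate 2 alone for 48, and in neither for none. The 388 were 79.7% of X regions, beside 75.4% of autosomal regions with a match in both. Since the pool is made of these replicates, such matches are not independent of it.

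Over the 388 matched X regions Spearman's rho between the replicate signals was -0.02, and over the 24 reproducible regions it was 0.16. The regions were listed for their signal in the pool of these replicates. Such a choice can lower the correlation between them, and how far it did so here was not tested. These values therefore do not measure how well the replicates match, and a poor match cannot be told apart from an effect of the choice. Replicate 1 gave a median X signal of 8.63 and replicate 2 one of 8.93, the former being higher in 178 of 388 regions. Of the 388, 40 ranked within the first 1000 in both lists, and 19 of these were reproducible regions. The same count was not made for the autosomes. A q value under 0.05 was reported by the authors for 33 X regions in replicate 1 and for 30 in replicate 2. These were 6.78% and 6.16% of X regions, against 7.16% and 5.28% of autosomal regions. For 14 X regions the q value was under 0.05 in both replicates, and 7 of those 14 were core regions. That count was made on X alone. In the pooled list neither any X region nor any autosomal region had a q value under 0.05. The best value on X was 0.151, shared by 27 X regions.

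**Figure D2:**
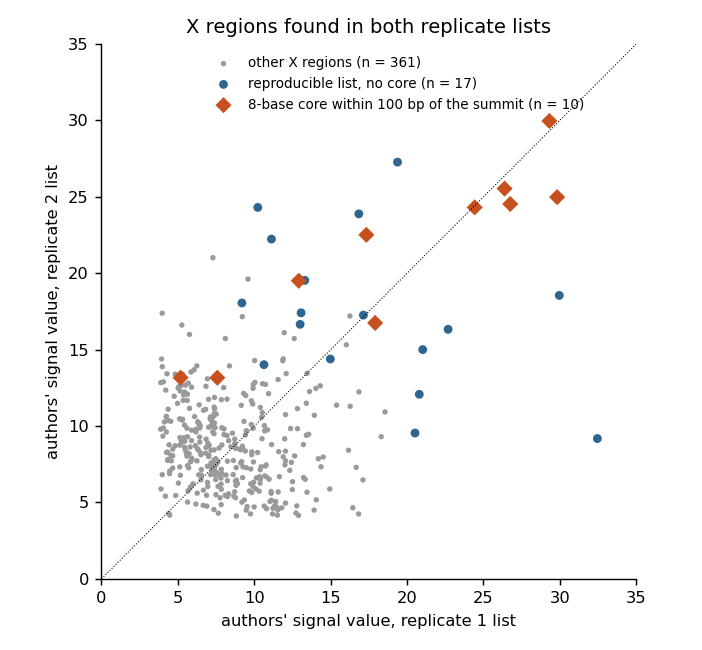
Authors' signal value in the replicate 2 list against the replicate 1 list for the 388 X regions found in both, with the dotted line marking equal values. Most grey points lie below about 15 in each list, and 5 of the 10 core regions (orange) lie above 24 in both.

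X held more regions than its size. It carried 22.8% (21.04 to 24.6%) of the 2136 nuclear pooled regions, with 17.7% of nuclear bases and 13.7% of protein-coding genes. This was 27.5 regions per Mb, against 18.9 to 22.9 on the autosomes, while X had 154 coding genes per Mb and the autosomes 188 to 239. Of the 76 nuclear reproducible regions, 24 were on X, or 31.6% (21.4 to 43.3%).

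The X share was higher among strong regions in all 3 lists. It was 44% of the top 25 in the pool, 32% in replicate 1 and 40% in replicate 2, with 35%, 28% and 32% of the top 100 and 25.6%, 23.8% and 26.2% of the top 500. The intervals of the top 25 were wide, at 24.4 to 65.1% in the pool, 14.9 to 53.5% in replicate 1 and 21.1 to 61.3% in replicate 2. In the full replicate lists the share was 19.8% and 19.7%. The share of X regions in the top 10% by pooled signal was 12.1% against 9.40% for the autosomes, and 4.93% of X regions were reproducible against 3.15%, with 3.56% over all nuclear regions. Neither of these differences passed the test (adjusted p = 0.182 and 0.171, Fisher's exact test). With the top 5% instead of the top 10% the adjusted p was 0.0494 by the same test. Over the alternatives the adjusted p lay between 0.0494 and 0.0837 for the top 10% and between 0.161 and 0.283 for the reproducible share.

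**Figure D3:**
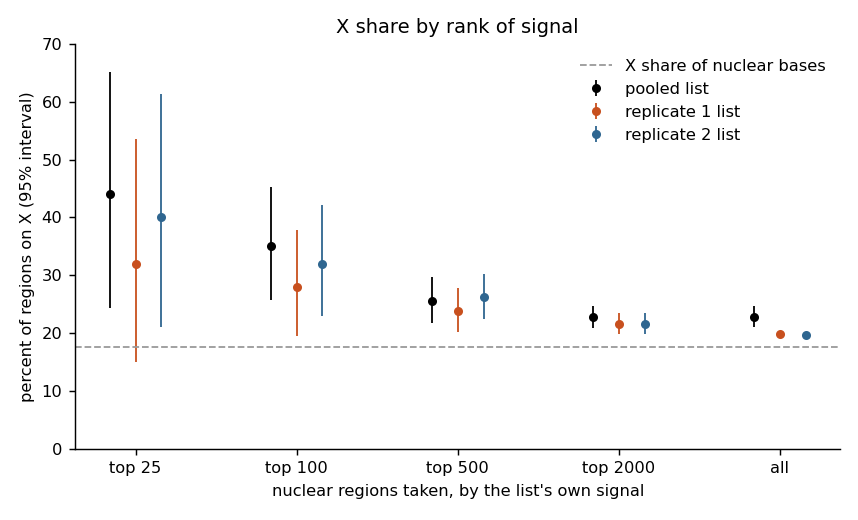
Percent of nuclear regions that lay on X, among the regions of highest signal in the pooled list and in each replicate list (points, with exact 95% intervals), against the X share of nuclear bases (dashed line, 17.7%). In all 3 lists the share is highest in the top 25 and lowest in the full list or the top 2000.

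Along X the regions ran from a first summit at 396010 to a last at 17619313 on a chromosome of 17718942 bp, with a median gap of 22700 bp. In 20 equal bins the count lay between 14 and 37 regions. In 5 equal parts from the left end, X held 69, 114, 96, 125 and 83 regions, beside 511, 572, 566, 600 and 482 coding gene starts. The outer parts were thus the poorest in both. Across the 20 bins the counts of regions and gene starts had a Spearman's rho of 0.63, given as a description since bins share a chromosome. The longest stretch without a summit ran 353283 bp, from 8969993 to 9323276. Core regions numbered 5, 3, 2, 1 and 2 in these parts, too few for a comparison, and 2 of the first 5 overlap in the Y41G9A.17 intron.

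**Figure D4:**
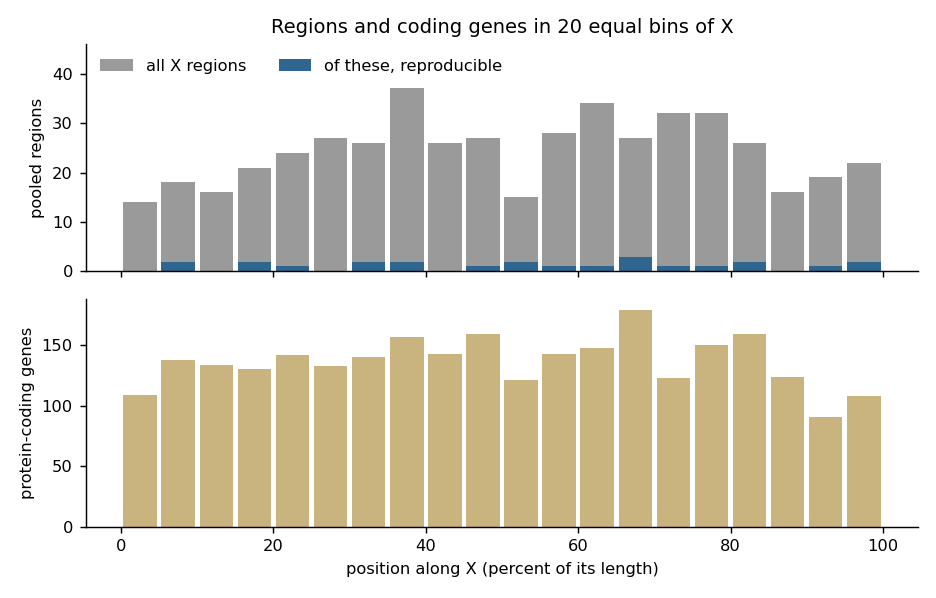
Pooled UNC-62 regions (upper panel, grey, with reproducible regions in blue) and protein-coding genes by start (lower panel) in 20 equal bins along X, from the left end to the right. Region counts lie between 14 and 37 per bin, lower in the outer bins, and reproducible regions are spread along the chromosome.

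Summits no more than 20000 bp from the next were joined into runs, and 145 stood alone. The longest run held 10 summits between 14478016 and 14561710 and included the regions at nspc-17 and in the nhr-3 intron. Others in it lay at the promoter of his-24, a linker histone gene, with a pooled signal of 27.1 and its summit 12 bp from the start, and at the promoter of nhr-3, with 25.1. There were 4 runs of 7 summits. The one between 4190856 and 4260525 began at vha-12, which encodes a subunit of the vacuolar proton pump, at 24.3 and held the core region near F20B6.9. The one between 6733022 and 6761731 had regions at R03E9.2, at mdl-1, which encodes a Mad-like basic helix-loop-helix factor, with 20.04, and at abts-4, an anion transporter gene, with 16.6. In these runs regions of high signal stood beside others near the floor of the list, at 15.6 to 15.8. The remaining runs of 7 held no reproducible region. The one between 11463258 and 11547088 had signals of 15.5 to 20.3 and included summits in lin-14, a heterochronic gene, and in a coding exon of sdc-2, which acts in dosage compensation, the latter with 18.6. The one between 13730459 and 13776674 had signals of 15.7 to 18.3, with 17.9 at the promoter of nkb-3, which encodes a subunit of the sodium pump, and 15.7 at that of nhr-71.

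By gene context the X regions lay less often at promoters and in coding exons, and more often in distal intergenic DNA, than the autosomal regions. A promoter ran from 1000 bp before to 200 bp after the start of a protein-coding transcript. It held 147 X summits, or 30.2%, and 36.6% of autosomal summits (adjusted p = 0.0324, Fisher's exact test). Coding exons outside promoters held 9.03% of X summits and 14.9% of autosomal summits (adjusted p = 0.00493, Fisher's exact test). Distal intergenic DNA held 32.0% and 20.8% (adjusted p = 4.49e-06, by the same exact test). Only protein-coding starts counted as promoters, so this class includes summits near the start of a non-coding gene. Introns held 20.9% and 20.7%, a difference of 0.205 points (exact test, adjusted p = 0.949), with an odds ratio of 1.01 (0.781 to 1.31). Exons of non-coding genes held 4.93% and 3.64% (adjusted p = 0.378, exact test).

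The base composition of X by these classes moved with the regions. Promoter windows covered 21.8% of X and 27.2% of the autosomes, so that promoters held 1.38 times their share of bases on X and 1.34 times on the autosomes. Distal intergenic DNA covered 30.3% of X and 21.2% of the autosomes, and the ratio of regions to bases was 1.06 and 0.983. For coding exons this ratio was 0.537 on X and 0.764 on the autosomes, so there the lower share on X was not matched by the bases. The promoter call was lost with the strongest regions of replicate 2 alone, that is without replicate 1, at 29.01% against 33.3% (adjusted p = 0.192, exact test), and with starts of all gene types, at 50.5% against 51.1% (adjusted p = 0.948), in a range of 0.000716 to 0.948 over the alternatives.

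**Figure D5:**
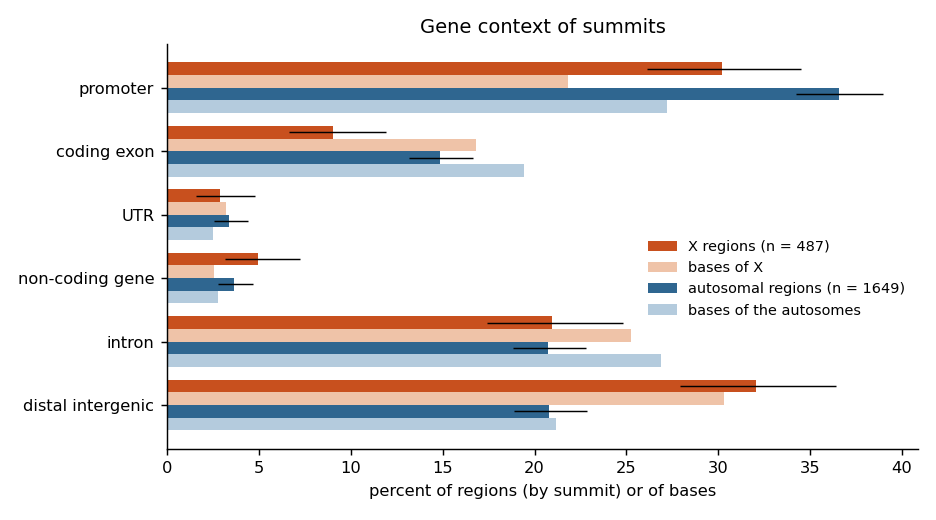
Percent of X regions (orange) and autosomal regions (blue) whose summit lay in each class of annotation, with exact 95% intervals, beside the percent of bases in that class (pale bars). Distal intergenic is the largest class on X, at 32.0% of regions and 30.3% of bases, and promoter is the largest on the autosomes.

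The nearest protein-coding start lay at a median of 1540 bp from X summits, 2248.5 bp from the reproducible ones, and 1570 bp from points taken every 1000 bp of X. On the autosomes the median was 1011 bp. X summits were upstream of that start in 267 of 487 cases. For the 13 core regions the median was 2588 bp, and 3 lay at a promoter. Of the 25 strongest X regions, 12 were distal intergenic, 6 were at promoters, 5 in introns, 1 in a coding exon and 1 in a non-coding gene. Some of the distal intergenic ones lay at the start of a non-coding gene, as at C18A11.13 and R106.8. Over all classes, 12 of the 25 had no annotated start of any gene type in reach. Many worm transcripts are trans-spliced, so an annotated start can lie downstream of the true promoter.

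In base composition the X and autosomal summits had close medians. The median GC content within 100 bp of the summit was 37.3% on X and 37.8% on the autosomes, against 35.3% in X flanks, and it was 43.3% for the reproducible X regions. Soft-masked repeats covered a median of 20.9% of X windows and 25.9% of X flanks. For the core regions the medians were 40.8% GC and 13.9% repeats.

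The letters GAGAGA, on either strand, were at 17.9% of X summits and 23.6% of autosomal summits (adjusted p = 0.0324, Fisher's exact test), with 22.3% over all nuclear summits. Within X they were at 10.7% of flanks and 9.50% of tiled windows. Of the reproducible regions, 8 of 24 on X and 34 of 52 on the autosomes held them. They were at 3 of the 10 strongest X regions and at 5 of the 14 that follow, and only 2 X regions held both GAGAGA and GCGCAGGG. With the strongest regions of a single replicate the call was lost, at 18.5% against 19.3% without replicate 1 (adjusted p = 0.835, exact test) and 18.2% against 21.7% without replicate 2 (adjusted p = 0.226), in a range of 0.00858 to 0.835 over the alternatives.

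Some promoters with these letters show what the repeat looks like there. Each is 60 bases of build ce11 on the plus strand, with GAGAGA, or TCTCTC where the repeat is on the other strand, in capitals.
Promoter of puf-9, chrX:5841206-5841265: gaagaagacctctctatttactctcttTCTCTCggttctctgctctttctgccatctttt
Promoter of bet-2, chrX:10568714-10568773: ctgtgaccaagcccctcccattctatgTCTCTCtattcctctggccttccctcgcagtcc
Promoter of zfp-3, chrX:1446917-1446976: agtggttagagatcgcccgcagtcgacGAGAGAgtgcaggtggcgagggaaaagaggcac

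The 87 X regions with GAGAGA had a median pooled signal of 18.6 and a median GC content of 43.8%, and the 400 without it 17.7 and 36.3%. They were present at 34 of the 147 X promoter regions and at 53 of the 340 others. GC content thus moved with the repeat, and its part in the result was not tested.

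Of the letters known from the Meis and Pbx families, TGACAG was at 9.45% of X summits, 8.43% of autosomal summits and 7.70% of X flanks. The composite TGATTGAC was at 1 X summit and 23 autosomal ones, or 0.205% and 1.39% (adjusted p = 0.0740, Fisher's exact test). TGATNNAT, where N is any base, was at 16.2% of X summits and 16.1% of X flanks. None of these differed from the autosomes at the threshold, with an adjusted p of 0.527 for TGACAG and 0.949 for TGATNNAT by Fisher's exact test. CTGCGTCT was at 3.29% of X summits and 0.821% of X flanks, and at 4.49% of autosomal summits. GATAAG, bound by GATA factors, was at 10.9% and CACGTG at 3.29% of X summits, against 9.16% and 4.31% of autosomal summits. These differences did not pass either (adjusted p = 0.398, 0.378 and 0.440, Fisher's exact test). A match to letters does not show that a protein was bound there.

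For the gene lists, a promoter was the same window, from 1000 bp before to 200 bp after a start, but for genes of any type. By this wider rule, 338 of the 6022 annotated X genes had a pooled summit at their promoter, or 5.61%, in 246 distinct regions. Nuclear hormone receptor genes, which encode ligand-regulated transcription factors, had one at 6 of 26, led by nhr-14 with a pooled signal of 29.7, nhr-3 with 25.1, nhr-1 with 19.3 and nhr-48 with 16.6. The nhr-14 region had 18.3 in replicate 1 and 9.30 in replicate 2, whereas for nhr-1 a match was found in replicate 1 alone. Cuticle collagen genes had one at 4 of 27, namely col-176 with 29.5, col-166 with 27.6, col-167 with 18.01 and col-180 with 16.7. Replicate signals were 12.6 and 15.7 for col-176 and 18.6 and 10.9 for col-166. None of these 10 was in the reproducible list, which held only 6 of the 147 X regions at protein-coding promoters, or 4.08%.

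Transfer RNA genes had a summit at 32 of 276, shared among neighbouring genes, and snoRNA and snRNA genes at 4 of 36, led by T27A8.8. MicroRNA genes had one at 4 of 74, of which 3 are the cel-mir-54 cluster at a single region and the other is cel-mir-788 with 21.3. Homeobox genes had 1 of 25, ceh-89 with 16.5, and neuropeptide genes 1 of 34, the insulin-like gene ins-39 with 19.3, where the core was present. The nspc family had 1 of 18, nspc-17. Of the sex determination and dosage compensation genes 1 of 7 had one, sdc-1 with 16.7, and of the ion channel and receptor genes 2 of 94 did, twk-23 with 18.4 and lgc-18 with 17.4. No summit was at the promoter of any of the 5 vitellogenin genes, which encode yolk proteins, the 4 GATA factor genes, the 6 heterochronic and dauer genes or the 2 ribosomal protein genes on X. A summit with 16.3 in an intron of the GATA factor gene elt-3 lay 227 bp after its start, just outside the promoter window. For lists this small the counts above are descriptions, and a summit at a promoter does not show that the gene is controlled from it.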

How the data were processed

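Region lists of UNC-62 ChIP-seq from 2 biological replicates were used, on builds ce11 and ce10. Per the labels, chromatin was sonicated. Neither aligner nor peak caller is given in the sources used here. Per the file lists the authors called each replicate (30000 regions, background included), the pool and an optimal IDR-thresholded list of 95 regions, called reproducible here. Column 7 holds the authors' signal per region, deposited without a stated scale, and served for ranking inside each list and for description. Values of the 2 replicate lists are set side by side above. With scale and depth unknown, close or distant values do not measure how well the replicates match. Column 9 holds the authors' −log10 q value as deposited. Files hold no read totals, so depth is unknown, and intervals (exact Clopper-Pearson, 95%) cover counting error only. With 2 replicates in 1 group an exact sign-flip test over animals cannot go below p = 0.5.

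Summits were read from the lists. Sequence came from RefSeq WBcel235, the assembly of ce11, and genes from Ensembl release 115. Replicate matches were summits within 200 bp. Classes were assigned in the order promoter, coding exon, UTR, exon of a non-coding gene, intron and distal intergenic. Letters were sought on both strands within 100 bp of summits. X and autosomal shares were compared by two-sided Fisher's exact test, adjusted over 17 comparisons by Benjamini-Hochberg, with a threshold of 0.05. Functions were tested on simulated data with planted promoters, letters and matches. Genes named are those at the 25 strongest X regions, up to 4 members of each of 14 gene lists, those of the longest runs (the rule took 3, but 4 tied behind the longest, so all 5 are described) and the 5 strongest X regions of each replicate. The members and lists were chosen with earlier results of these data known, and the collagen and channel lists were narrowed after their counts were seen, to drop genes of other kinds. Alternatives covered list depth, merging of near summits, each replicate alone, ce10, and promoter, match and letter windows. The work ran in Python 3.11.15 with scipy 1.17.1, numpy 2.4.6 and matplotlib 3.10.9.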

Additional observations from a re-analysis of the deposited data

How the results depend on the processing

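Values are the X minus the autosomal share, in percentage points. The promoter difference of -6.38 lost its call in the upper 50% of pooled regions by signal (-4.89), after merging summits within 1000 bp (-5.74) and with starts of all gene types (-0.548), and lay between -7.33 and -4.30 when each replicate was left out in turn. The GAGAGA difference of -5.73 lost its call within 250 bp of the summit (-3.31) and lay between -3.51 and -0.872 with each replicate left out. The top 10% difference of 2.72 passed at the top 5% (2.82). The difference in matches to replicate 2, 1.90 and not called, changed sign in the upper 50% (-0.430). The X share of 22.8% was 31.6% among reproducible regions. For the promoter and GAGAGA differences the cause was not tested. The GCGCAGGG difference kept its call and direction under all 9 alternatives, which were added after the data were seen, between 1.14 and 29.2 points. Of 46 alternatives with a test, 35 kept the direction and the side of the threshold and 2 gave a difference of 0, since every reproducible region was matched in each replicate. Of 6 alternatives for the X share, which has no test, 5 lay within its interval. Depth is unknown, so weak regions could not be separated from shallow sequencing. No paired analysis was possible because both replicates belong to 1 group.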
